A study of Mus musculus with 12 samples.

Results

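The complement genes described here were the 9 genes C1qa, C1qb, C1qc, C2, C3, C4b, C3ar1, C5ar1 and Serping1, found by symbol among the 21937 gene symbols for which normalized read counts were deposited. All 9 were present, and all 9 passed the minimum mean normalized read count of 10 over the 12 libraries that was set for testing. RNA was sequenced from myelin purified from the brains of male wild-type c57Bl6/N mice at 4 ages, postnatal day 18 (P18), postnatal day 75 (P75), 6 months (6mo) and 24 months (24mo), with 3 libraries at each age. The labels name no mutation and no treatment, so the groups differed by age as labelled, and only males were used. The sources used here do not say whether libraries of different ages were prepared or sequenced together, and the library numbers of each age form a block of their own, so age and any such batch cannot be told apart. The libraries at 6 months came from individual mice, whereas the sources used here do not say so for the other ages, where p-values then measure only the spread between libraries.

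Complement is a cascade of plasma and tissue proteins that tags particles, cells and cell debris for removal. In the classical pathway, C1q, assembled from the A, B and C chains that C1qa, C1qb and C1qc encode, recognises the target and activates the proteases C1r and C1s, which cleave C4 and C2 to form the convertase that cleaves C3. Fragments of C3 mark the target or signal through the receptor encoded by C3ar1, the fragment C5a signals through the receptor encoded by C5ar1, and the inhibitor encoded by Serping1 blocks C1r and C1s. In the brain, microglia are the main source of C1q, and C1q and C3 are known for tagging synapses that microglia remove during development.

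On the mouse assembly NCBIM37 (mm9) with the GENCODE vM1 annotation, all 9 genes lie on the minus strand. The C1q chain genes lie next to each other on chromosome 4. C1qb spans chr4:136436044-136442102, C1qc spans chr4:136445719-136448980 and C1qa spans chr4:136451832-136454718, each with 3 exons. C2 (chr17:34999549-35035397, 23 exons), C4b (chr17:34865325-34880827, 40 exons) and C3 (chr17:57343397-57367559, 41 exons) lie on chromosome 17. C3ar1 (chr6:122797156-122806179) has 2 exons, C5ar1 (chr7:16832092-16844889) has 3 exons and Serping1 (chr2:84605544-84615601) has 8 exons. Of the 4059 exon bases of C2, 1817 bases were shared with the annotated genes Gm20547 or Zbtb12. C4b has a near-identical copy, C4a (chr17:34946037-34960409). The counts of C2 and C4b may therefore miss reads that fit the overlapping genes or the copy as well.

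The promoters of C3 and C1qb are shown as examples with a motif match, from the 5 complement genes whose promoters were at hand. Each is given as the 250 bases before the start site on the minus strand, written 5′ to 3′, from RefSeq on GRCm38.p6. Whether these sequences bear on the changes with age was not tested. The capitals mark matches, found by letters alone on both strands, to a C/EBP motif (TTGCNNAA) in C3 and to a PU.1/ETS motif (GAGGAA) in C1qb.
C3 promoter, chr17:57228137-57228386: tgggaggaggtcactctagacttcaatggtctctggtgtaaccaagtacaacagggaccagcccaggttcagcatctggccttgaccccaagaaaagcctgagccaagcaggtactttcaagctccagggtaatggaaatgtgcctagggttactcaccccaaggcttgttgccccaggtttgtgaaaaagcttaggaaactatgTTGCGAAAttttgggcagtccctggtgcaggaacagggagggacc
C1qb promoter, chr4:136886201-136886450: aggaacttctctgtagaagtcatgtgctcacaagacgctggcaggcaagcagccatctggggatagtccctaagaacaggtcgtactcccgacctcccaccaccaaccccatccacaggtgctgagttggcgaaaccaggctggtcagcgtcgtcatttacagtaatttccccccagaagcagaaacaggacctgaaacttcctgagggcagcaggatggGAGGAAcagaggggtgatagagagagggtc
The C/EBP letters began 45 bases upstream of the start of C3 and occurred in 9.56% of the 32851 promoters of the same length. The PU.1/ETS letters began 30 bases upstream of the start of C1qb, occurred on the reverse strand 193 bases upstream of C1qc, and were found in 23.3% of all promoters. Among the 5 complement genes whose promoters the table held (C1qb, C1qc, C3, C3ar1 and C5ar1), C3ar1 held the only match to a TATA box (TATAAA, 12.4% of promoters), 235 bases upstream. None of the 5 matched the letters of a GAS element (TTCNNNGAA, 7.02% of promoters), an ISRE (2.98%) or an NF-kB site (0.356%).

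Each library held between 20299052 and 27214385 reads on genes, and 1 read was worth 0.812 to 1.188 normalized read counts, so that the normalized values of the complement genes were close to the reads behind them. All 8 myelin markers were detected in every library. Mbp, which encodes myelin basic protein, took 9.47% to 20.8% of the reads at P18 and 4.76% to 8.48% at the later ages. By the test used below, all 8 markers were lower at P75 than at P18 (median log2 -1.21), beside 22.9% of all genes tested. At 24 months 7 were lower than at P18, beside 34.3% of all genes. From P75 to 6 months 2 were higher, beside 31.2%, and from 6 months to 24 months 1 was lower, beside 12.7%. The part of this difference in myelin RNA in the changes of the complement genes from P18 was not tested. Transcripts of other brain cells were present as well, among them all 12 markers of a microglial list, whose summed normalized count was between 4428 and 6066 at P18 and between 10801 and 12174 at 24 months. In such a bulk sample, fewer cells of a type and less RNA per cell cannot be told apart.

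The plot of normalized read counts by library gives all 12 values for each of the complement genes.

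**Figure D1:**
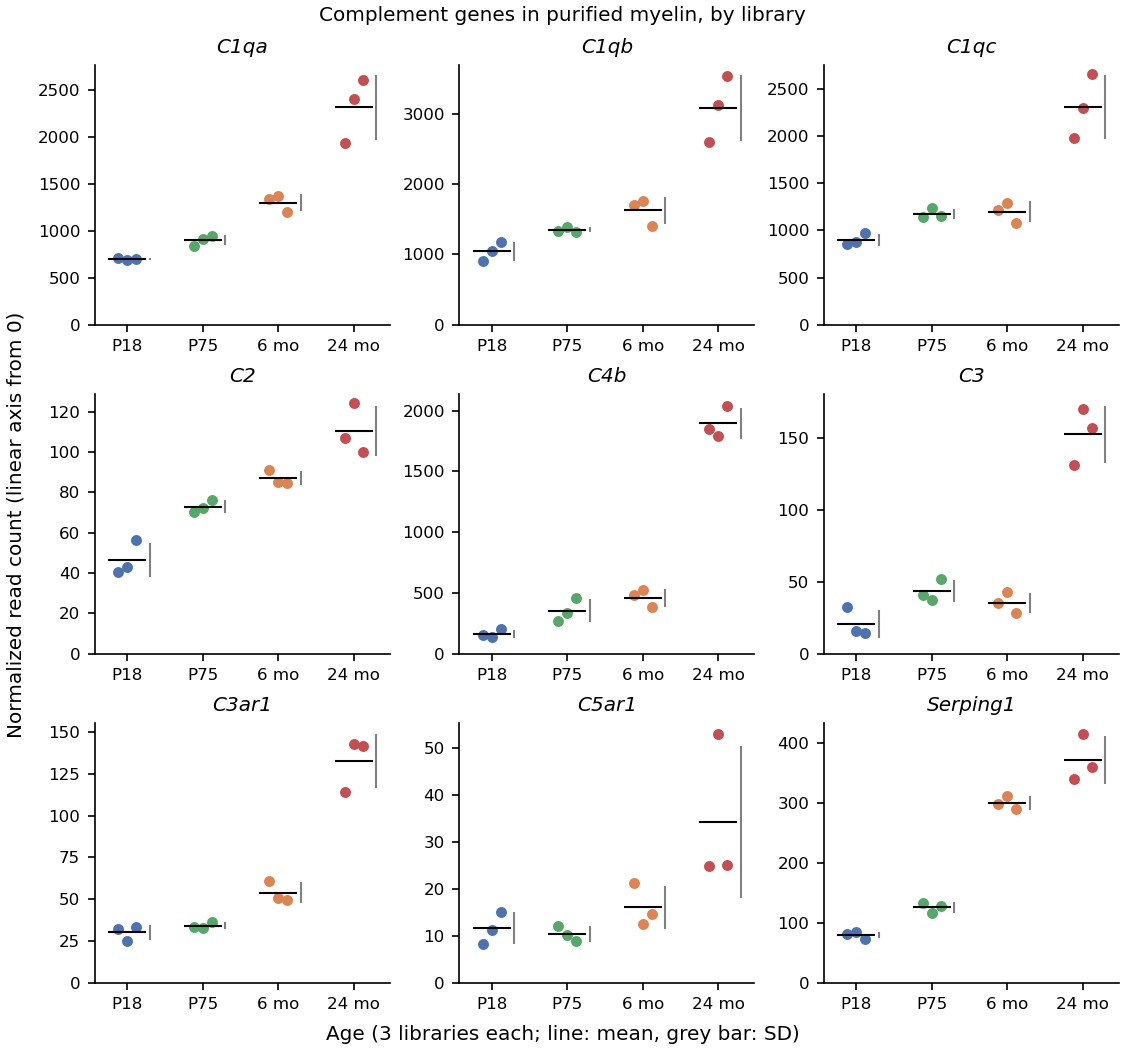
Normalized read counts of the 9 complement genes by age. Points are libraries (3 per age), black lines are means and grey bars are SD, on linear axes that start at 0. For every gene the 3 libraries at 24 months lie above those of P18, P75 and 6 months, and C4b reaches 1792 to 2038 at 24 months from at most 523 at the younger ages.

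Comparing neighbouring ages asked when in life these transcripts change in the myelin fraction. From P18 to P75, 7 of the 9 complement genes were higher and 0 were lower by limma at an adjusted p under 0.1, where 25.9% of the 14634 genes tested were higher and 22.9% were lower. From P75 to 6 months, 5 complement genes were higher and 0 lower, against 31.2% and 29.4% of all genes. From 6 months to 24 months, 8 were higher and 0 lower, against 16.6% and 12.7% of all genes. No complement gene fell at an unadjusted p under 0.05 in these steps, and edgeR and DESeq2 on the recovered reads called 0 lower as well. The median log2 change of the complement genes was 0.39, 0.40 and 0.94 in the successive steps, beside medians over all genes tested of 0.02, 0.01 and 0.03.

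**Figure D2:**
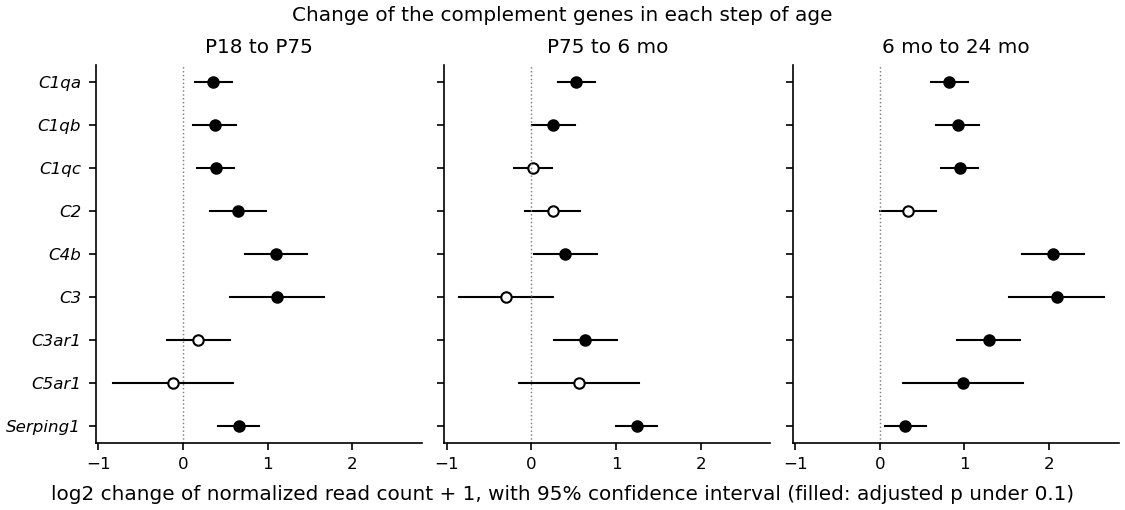
Change of each complement gene in the 3 successive steps of age, on the log2(normalized read count + 1) scale. Points are estimates with 95% confidence intervals, filled where the adjusted p is under 0.1. C4b and C3 lie farthest to the right in the step from 6 months to 24 months (2.05 and 2.09), Serping1 in the step from P75 to 6 months (1.25).

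Over longer spans, all 9 genes were higher at 24 months than at P75, where 28.8% of all genes were higher and 26.1% lower, and all 9 were higher at 24 months than at P18, where 34.7% were higher and 34.3% lower. The medians of the 9 changes were 1.55 and 1.72, beside -0.004 and -0.01 over all genes tested. These comparisons share the 24-month libraries with each other and with the step from 6 months.

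Another scaling moved the counts over all genes. When every library was scaled to the same total, the median over all genes in the step from P18 to P75 was 0.14 in place of 0.02, and 72.2% in place of 53% of the genes called were higher. The same 7 complement genes were called under both scalings. In the step from 6 months to 24 months that scaling gave 46.3% higher among the genes called in place of 56.8%, and 7 in place of 8 complement genes, the one lost being Serping1.

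C1qa, which encodes the A chain of C1q, was higher at every successive age. Its normalized read counts were 708, 690.4 and 701 at P18 and 843, 909.6 and 946 at P75. They were 1341, 1370.5 and 1197 at 6 months and 1934, 2410.03 and 2615 at 24 months. No 2 neighbouring ages overlapped, and the spread between libraries was widest at 24 months, where replicate 1 was lowest. The log2 change was 0.36 (SE 0.10, adjusted p = 0.00966) from P18 to P75, 0.53 (adjusted p = 0.000385) from P75 to 6 months and 0.82 (adjusted p = 0.000223) from 6 months to 24 months, the last a fold of 1.77. C1qa stood at rank 5731 of 21937 genes by mean normalized count at P18 and at rank 1972 at 24 months.

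C1qb, which encodes the B chain, had normalized read counts of 905, 1049 and 1179 at P18 and of 1333, 1389.8 and 1322 at P75. The counts were 1706, 1758 and 1407 at 6 months and 2600.5, 3115 and 3537 at 24 months. The libraries of P75 and 6 months came close to each other, with the highest at P75 just under the lowest at 6 months. C1qb rose from P18 to P75 (log2 0.38, adjusted p = 0.0187) and 1.89-fold from 6 months to 24 months (log2 0.92, adjusted p = 0.000289). The difference between P75 and 6 months was small (log2 0.26, adjusted p = 0.0753), and its call was lost when any P75 library or replicate 1 or 2 at 6 months was left out, and with the same total or quantile normalization. Its adjusted p lay between 0.0269 and 0.23 over all alternatives.

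C1qc, which encodes the C chain, had normalized read counts of 854, 878 and 971 at P18 and of 1144, 1239 and 1152 at P75. At 6 months they were 1220.3, 1296 and 1077, a range that enclosed that of P75. At 24 months they were 1983, 2299 and 2663, all above every earlier library. The change was 0.39 from P18 to P75 (adjusted p = 0.00724), 0.02 from P75 to 6 months (adjusted p = 0.884) and 0.94 from 6 months to 24 months (adjusted p = 0.000106), a fold of 1.92.

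Within a library the counts of the C1q genes kept a close ratio, and the ratios to C1qc differed between the young and the older ages. The ratio of C1qa to C1qc counts was 0.779 on average at P18 and 0.764 at P75, and it was 1.06 to 1.11 at 6 months and 0.975 to 1.05 at 24 months. All 6 older libraries were above the 6 younger ones, which lay between 0.722 and 0.829. The ratio of C1qb to C1qc was 1.06 to 1.21 in the younger libraries and 1.31 to 1.40 in the older ones. The ratio of C1qa to C1qb did not separate the ages in this way. It was 0.595 to 0.782 at P18, 0.632 to 0.716 at P75, 0.779 to 0.851 at 6 months and 0.739 to 0.774 at 24 months. The difference of the C1qa to C1qc ratio between P75 and 6 months was 0.51 on the log2 scale, with an exact two-sided permutation p = 0.1, the smallest that 3 libraries against 3 allow. This ratio was chosen after the values of its genes had been seen, and 3 differences of ratios were tested in all, each with p = 0.1 by the exact permutation test before and after adjustment.

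**Figure D3:**
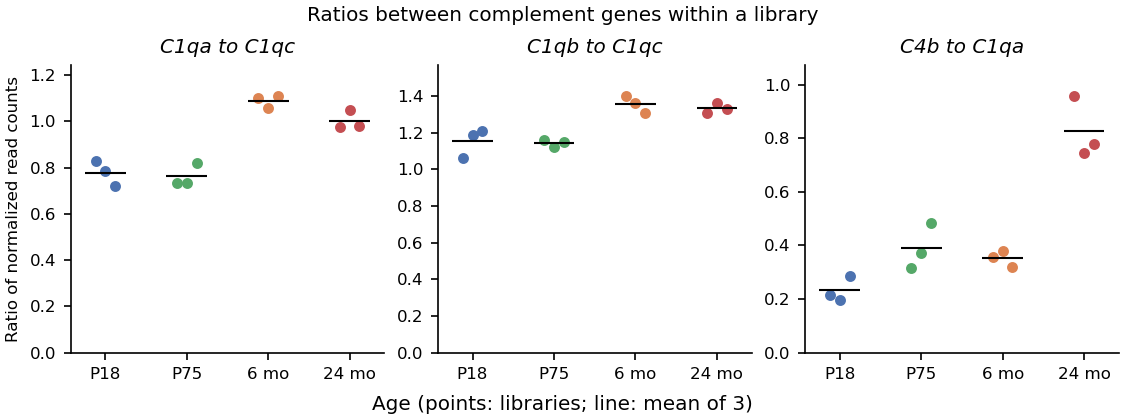
Ratios of normalized read counts between complement genes within each library, by age, on linear axes from 0. Points are libraries and lines are means of 3. The C1qa to C1qc ratio lies between 0.722 and 0.829 up to P75 and between 0.975 and 1.11 later, and the C4b to C1qa ratio lies between 0.743 and 0.957 at 24 months and at or below 0.485 before.

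C4b, which encodes the complement component that C1s cleaves, changed most over the whole age range. Its normalized read counts were 153, 136 and 199.9 at P18, 267, 337 and 459 at P75, and 479, 523 and 380.5 at 6 months. At 24 months they were 1851, 1792 and 2038. The 24-month libraries stood far above all others and lay close together, while P75 and 6 months overlapped. C4b rose 4.13-fold from 6 months to 24 months (log2 2.05, adjusted p = 1.9e-05) and 11.7-fold from P18 to 24 months (log2 3.55, adjusted p = 2.8e-10). It also rose from P18 to P75 (log2 1.10, SE 0.17, adjusted p = 0.000138). The step from P75 to 6 months (log2 0.40, adjusted p = 0.0637) lost its call when P75 replicate 1 or 2 or 6-month replicate 1 or 2 was left out, and without P75 replicate 1 the change was 0.215 (adjusted p = 0.314, with 0.00755 to 0.314 over its alternatives). By mean count C4b moved from rank 10118 at P18 to rank 2419 of 21937 at 24 months.

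The near-identical copy C4a had much lower counts, with means of 5.81 ± 3.11 (SD, n = 3) at P18 and 18.1 ± 2.77 at 24 months. In each of the 12 libraries C4b counted at least 21.5 times as many as C4a. C4a did not pass the test from 6 months to 24 months (log2 0.79, adjusted p = 0.161). Per library, the ratio of C4b to C1qa counts was 0.318 to 0.381 at 6 months and 0.743 to 0.957 at 24 months, a difference of 1.23 on the log2 scale with an exact two-sided permutation p = 0.1, the smallest possible here.

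C2, which encodes the protease that joins the fragment of C4 in the convertase, had the smallest change of the 9 genes from P18 to 24 months (log2 1.24). Its normalized read counts were 40.4, 42.9 and 56.25 at P18 and 70.15, 72.3 and 76.3 at P75. They were 91.0, 85.2 and 84.7 at 6 months and 107, 124 and 99.97 at 24 months. No neighbouring ages overlapped, but only the step from P18 to P75 passed the test (log2 0.65, adjusted p = 0.00333). The later steps were 0.25 (adjusted p = 0.186) and 0.34 (adjusted p = 0.136), and the change from P75 to 24 months was 0.59. The step from 6 months to 24 months passed with edgeR (adjusted p = 0.0876) and in a fit to those 2 ages alone (adjusted p = 0.0884), with adjusted p between 0.0867 and 0.379 over its alternatives.

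C3, which encodes the central component of the cascade, was low until 6 months and 4.26-fold higher at 24 months than at 6 months (log2 2.09, adjusted p = 0.000237). Its normalized read counts were 32.1, 15.8 and 14.1 at P18, 41.1, 37.1 and 51.96 at P75, and 34.9, 42.6 and 28.2 at 6 months. At 24 months they were 131, 169.75 and 156. P75 and 6 months overlapped, and their difference did not pass the test (log2 -0.30, adjusted p = 0.356). P18 was below P75 (log2 change 1.11, adjusted p = 0.00306), with replicate 1 the highest at P18. The ratio of C3 to C4b counts was 0.0707 to 0.0947 at 24 months, a range that overlapped the 0.0729 to 0.0815 of 6 months.

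C3ar1, which encodes the receptor for the C3 fragment C3a and is a gene of microglia and other myeloid cells, had normalized read counts of 32.1, 24.9 and 33.15 at P18 and of 33.1, 32.45 and 36.5 at P75. These ages overlapped, and their difference did not pass the test (log2 0.18, adjusted p = 0.432). The counts were 60.9, 50.6 and 49.6 at 6 months and 114, 143 and 142 at 24 months, each age above the one before. The increases were 0.64 from P75 to 6 months (adjusted p = 0.00597) and 1.29 from 6 months to 24 months (adjusted p = 0.00044), the latter a fold of 2.44.

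C5ar1, which encodes the receptor for C5a, had the lowest counts of the complement genes at each age, before gene length is considered, and rested on 7 to 49 reads per library. Its normalized read counts were 8.32, 11.3 and 15.1 at P18, 12.03, 10.2 and 8.84 at P75, and 21.1, 12.4 and 14.6 at 6 months. At 24 months they were 24.8, 52.98 and 24.99, with replicate 2 far above the others. C5ar1 passed the test from 6 months to 24 months (log2 0.99, adjusted p = 0.0488). Without replicate 2 at 24 months the change was 0.63 (adjusted p = 0.239), and the call was also lost without replicate 2 or replicate 3 at 6 months, with adjusted p between 0.0264 and 0.239 over its alternatives. S100a8 and S100a9, which neutrophils express strongly, were highest in the same library. Their counts at 24 months were 50.5, 113.5 and 13.9 for S100a8 and 70.3, 151 and 35.2 for S100a9, and both were higher at 24 months than at 6 months (log2 2.90 and 2.46). At P75, where C5ar1 was low, S100a8 and S100a9 had means of 44.6 and 71.3, and their changes from P75 to 24 months did not pass (0.19 and 0.09). In replicate 3 at P75, S100a8 was 78.5 and C5ar1 was 8.84. The part of such cells in the C5ar1 counts was not tested.

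Serping1, which encodes the inhibitor of C1r and C1s, followed another course. Its normalized read counts were 80.8, 83.6 and 73.3 at P18 and 133, 116 and 128 at P75. They were 297, 312 and 289 at 6 months and 339, 415 and 359 at 24 months. No neighbouring ages overlapped, and the widest gap lay between P75 and 6 months. Serping1 rose by 0.66 from P18 to P75 (adjusted p = 0.00029), by 1.25 from P75 to 6 months (adjusted p = 6.04e-07) and by 0.30 from 6 months to 24 months (adjusted p = 0.0711). This last step, a fold of 1.24, lost its call with all libraries scaled to the same total (log2 0.26, adjusted p = 0.187), and without any 1 of the 6-month libraries or of replicates 2 and 3 at 24 months, with adjusted p between 0.038 and 0.277 over its alternatives. The ratio of Serping1 to C1qa counts was 0.105 to 0.121 at P18, 0.222 to 0.241 at 6 months and 0.137 to 0.175 at 24 months.

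Levels between genes were compared as normalized read counts per kilobase of exon. At 24 months C1qb was highest (2835 ± 431 per kb, SD, n = 3), followed by C1qa (2230.4 ± 336) and C1qc (1199 ± 176). C4b (332 ± 22.6) and Serping1 (160.0 ± 17.0) came next, and C3ar1 (30.8 ± 3.79), C3 (29.7 ± 3.86), C2 (27.2 ± 3.09) and C5ar1 (13.3 ± 6.31) were lowest. The libraries of C1qb and C1qa overlapped in this order, as did those of C3ar1, C3 and C2. The length used for C2 holds 1817 of 4059 bases shared with other genes, and C4b has a near-identical copy. The values per kilobase of C2 and C4b, and so their places, may thus be too low. At P18 the C1q genes were also highest, at 960.0 ± 126 for C1qb, 673 ± 8.64 for C1qa and 467 ± 32.0 for C1qc. Serping1 (34.1 ± 2.29) and C4b (28.6 ± 5.83) overlapped there. C2 (11.5 ± 2.10) was followed by C3ar1 (6.98 ± 1.05), C5ar1 (4.50 ± 1.32) and C3 (4.02 ± 1.94), whose libraries overlapped, so that C3 moved from the lowest mean to a place beside C3ar1.

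Microglial markers were in part higher in the same steps. Over all genes tested, 25.9%, 31.2% and 16.6% were higher in the successive steps, and 22.9%, 29.4% and 12.7% were lower. Of the 12 microglial markers, 7 were higher from P18 to P75, 5 were higher and Aif1 was lower (log2 -1.03) from P75 to 6 months, and 4 were higher from 6 months to 24 months, where 8 did not pass and the median log2 change of the list was 0.23. Among the 4 were Aif1 (log2 0.77), Gpr34 (0.64) and Ptprc (0.99), whereas Csf1r (0.00), Cx3cr1 (0.11), Tmem119 (0.20) and P2ry12 (0.24) did not pass. The summed count of the list went from 5392 ± 857 (P18) over 7191 ± 623 (P75) and 8779 ± 565 (6 months) to 11460.4 ± 688 (24 months). As a percentage of this sum, the C1q genes together were 50.4% ± 12.4, 47.9% ± 5.21 and 47.0% ± 4.04 at the first 3 ages, and 67.1% ± 6.17 at 24 months. The range at 24 months, 60.3% to 72.4%, overlapped that of P18, 40.7% to 64.4%, but neither that of P75 nor that of 6 months.

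Relative to the same microglial sum, C4b was 5.25% ± 0.783 at 6 months and 16.5% ± 0.736 at 24 months, and C3 was 0.402% ± 0.084 and 1.33% ± 0.144. C3ar1 was 0.611% ± 0.0316 and 1.16% ± 0.0984 at these ages. C2 (0.992% and 0.967%) and Serping1 (3.42% and 3.24%) had percentages whose libraries overlapped between these ages. The part of microglial number or state in the changes of the complement genes was not tested.

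Markers of other cells gave the following values in the step from 6 months to 24 months, in which 16.6% of all genes tested were higher and 12.7% lower. Of 10 genes of activated microglia, 8 were higher, among them Cst7 (log2 3.41), Clec7a (2.98), Tyrobp (1.24) and Trem2 (1.03), and their summed count went from a range of 40687 to 46629 to one of 43749 to 56022. That sum was mostly Apoe, which did not pass (0.16, adjusted p = 0.438). Of 9 astrocyte markers, 2 were higher, Gfap (0.65) and Gjb6 (0.47), and the sum was 101353 to 113518 at 6 months and 100589 to 109353 at 24 months. Of 6 markers of border macrophages, Cd163 was higher (0.77), with sums of 232 to 235 and of 264 to 334. Of 6 fibroblast markers, Dcn was higher (0.33), with sums of 2016 to 2099 and of 2044 to 2495. Of 8 endothelial markers, Ly6c1 was higher (0.595), with sums of 627 to 755 and of 663 to 755. Of 8 neuron markers, 0 were higher and 2 were lower, Nefl (-0.31) and Nefm (-0.25). The neuron sum was 168780 to 173656 at 6 months and 159860 to 165870 at 24 months. Of 6 choroid plexus markers, Ttr was higher (0.63) and the other 5 did not pass, and their sum, which was mostly Ttr, was 27411 to 31761 at 6 months and 42609 to 47235 at 24 months. Of the blood cell markers, the haemoglobin genes Hba-a1, Hbb-b1 and Hbb-b2 were listed at 0 in every library, and the sum, then of S100a8 and S100a9, was 12.7 to 21.9 and 49.1 to 265. In the earlier steps, in which Serping1 rose, 3 of the 6 fibroblast markers were higher and 2 lower (Col1a1 and Col3a1, log2 -0.59 and -0.66) from P18 to P75, and Dcn (0.64) and Slc6a13 (1.66) were higher from P75 to 6 months. The fibroblast sum had a mean of 992 at P18, 1373 at P75 and 2057 at 6 months, of which Dcn made up 211, 618 and 959.7. Of the choroid plexus markers, 4 were higher and Otx2 was lower (-0.41) from P18 to P75, and 5 of the 6 were higher from P75 to 6 months, with mean sums of 13751, 25637 and 29680.1 at these ages. In these steps, 2 and then 5 of the 8 neuron markers were higher and 3 and then 2 lower. For the 9 astrocyte markers these numbers were 2 and 2 higher and 2 and 1 lower. For the 8 endothelial markers they were 1 and 3 higher and 0 and 2 lower. For the 6 border macrophage markers they were 1 and 1 higher and 2 and 1 lower. Over all genes tested, 25.9% and 31.2% were higher and 22.9% and 29.4% lower. The part of these cells in the changes of the complement genes was not tested.

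Of 45 other genes of the complement system, 42 were present and 26 reached the minimum mean for testing. From P18 to P75, 11 (42.3%) were higher and 4 (15.4%) lower, beside 25.9% and 22.9% of all genes tested. From P75 to 6 months 11 (42.3%) were higher and 3 (11.5%) lower, beside 31.2% and 29.4%. From 6 months to 24 months 11 (42.3%) were higher and 2 (7.69%) lower, beside 16.6% and 12.7%. From P75 to 24 months 16 (61.5%) were higher and 2 (7.69%) lower, beside 28.8% and 26.1%, and from P18 to 24 months 17 (65.4%) were higher and 3 (11.5%) lower, beside 34.7% and 34.3%. Their median log2 changes in the successive steps were 0.46, 0.36 and 0.25. The count of 11 from 6 months to 24 months was 4, 6 and 6 without replicate 1, 2 or 3 at 6 months, 7 and 3 without replicate 1 or 2 at 24 months, and 7 with all libraries scaled to the same total. The 2 lower genes became 1 without replicate 1 or 2 at either age. The count of 11 from P75 to 6 months was 7 without P75 replicate 2, and the 3 lower from P18 to 24 months became 1 without replicate 2 at 24 months.

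**Figure D4:**
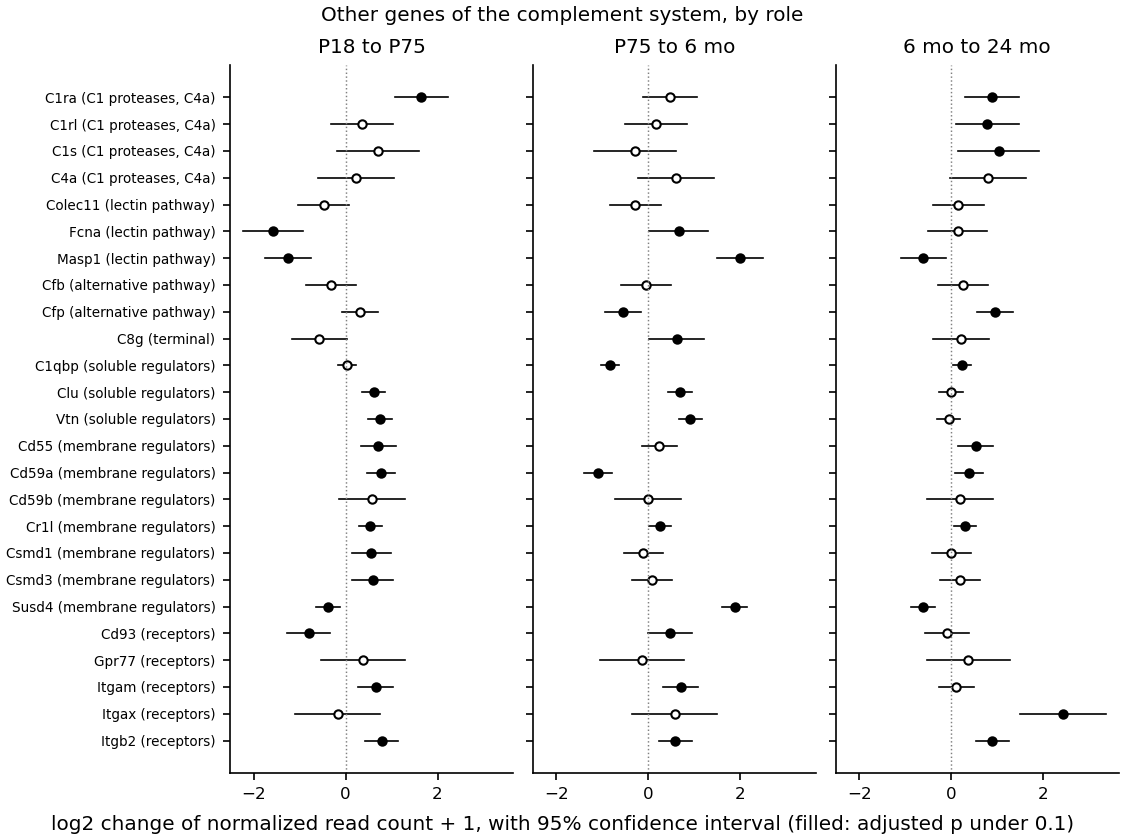
Change of 25 of the 26 other complement genes tested, by role, in the 3 successive steps of age on the log2(normalized read count + 1) scale, with 95% confidence intervals and filled points where the adjusted p is under 0.1. In the step from 6 months to 24 months Itgax lies farthest to the right (2.44), and Susd4 (-0.61) and Masp1 (-0.61) lie farthest to the left.

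By role, C1ra, C1s and C1rl, the last encoding a C1r-like protease, had low counts and were called higher from 6 months to 24 months. C1ra, which encodes C1r, had a mean of 5.10 ± 0.814 at P18, 25.6 ± 4.95 at 6 months and 48.2 ± 10.3 at 24 months, and rose by 0.88 in the last step (adjusted p = 0.0358). C1s (1.03, adjusted p = 0.0932) and C1rl (0.79, adjusted p = 0.0897) were also called, at means of 21.8 and 17.1 at 24 months, and the libraries of C1s overlapped between the ages. From P75 to 24 months C1ra (1.35) and C1rl (0.96) were higher, and C1s did not pass (0.74, adjusted p = 0.161). C1rb was listed at 0 in every library.

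Of the lectin pathway, whose recognition proteins bind sugars, 3 of 7 genes were tested. Masp1, a protease of this pathway, fell by 0.61 from 6 months to 24 months (adjusted p = 0.0755), after means of 65.7 at P18, 26.5 at P75 and 108 at 6 months. Fcna and Colec11, which encode recognition proteins, were lower at 24 months than at P18 (log2 -0.79 and -0.60), at means of 11.2 and 15.3. Fcna fell by 1.58 from P18 to P75, to a mean of 6.06, and was higher again at 6 months (0.66) and at 24 months (0.80) than at P75. Of the alternative pathway, Cfp, which encodes the stabilising protein properdin, rose by 0.95 (adjusted p = 0.00387) from 6 months to 24 months, and Cfb, which encodes factor B, did not pass (0.26, adjusted p = 0.5). Of the terminal components, which form the membrane pore, C8g reached the minimum for testing, at means of 23.4, 15.8, 24.6 and 28.0 at the successive ages. It rose from P75 to 6 months (0.62, adjusted p = 0.0769) and did not pass from 6 months to 24 months (0.21, adjusted p = 0.634). Hc, which encodes C5, and C6, C8a and C8b were below a mean of 10, and C9 was listed at 0 throughout.

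Among the soluble regulators, Clu, which encodes clusterin, and Vtn, which encodes vitronectin, rose between P18 and 24 months (log2 1.29 and 1.61) with last steps of -0.01 and -0.06 that did not pass. C1qbp, which was placed in the same list here, took another course. It fell from P75 to 6 months (log2 -0.83, adjusted p = 2.44e-06) and rose from 6 months to 24 months (0.235, adjusted p = 0.0761). At 24 months it was lower than at P18 (-0.57). Of the membrane regulators, which protect host cells, Cd55 (0.53), Cd59a (0.40) and Cr1l (0.30) were higher at 24 months than at 6 months and Susd4 was lower (-0.61, adjusted p = 0.0049). For Cd59a and Susd4 the step before went the other way. Cd59a fell from P75 to 6 months (-1.09) and was lower at 24 months than at P75 (-0.70). Susd4 rose by 1.88 from P75 to 6 months and was higher at 24 months than at P75 (1.27) and at P18 (0.89). Of the receptors, Itgax and Itgb2 encode the chains of complement receptor 4. From 6 months to 24 months they rose by 2.44 and 0.89 (adjusted p = 0.00233 and 0.00307). Itgam, which encodes the alpha chain of complement receptor 3, did not pass (0.11, adjusted p = 0.705). Itgax and Itgam also stand in the activated microglia and microglia lists.

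The genes most like a complement gene over the 12 libraries were found by Pearson r of log2(normalized read count + 1), as a description. The libraries share their ages, so any genes that move with age correlate. For C1qa these were Lyz2 (r = 0.991), Ctsh (0.988) and Serpina3n (0.985), and Lyz2 went from a mean of 55.6 at P18 to 890.0 at 24 months. For C3 they were Tspo (0.960), Tyrobp (0.957) and A2m (0.949). For C4b they were Fbln5 (0.981), Rnase4 (0.977) and B2m (0.974). For Serping1 they were Gpr182 (0.996), Cln3 (0.995) and Tmem59 (0.994), each with its largest step between P75 and 6 months, such as Tmem59 with means of 2744, 3829, 6210 and 7087 at the successive ages.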

How the data were processed

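Myelin was purified from mouse brains at 4 ages with 3 libraries each. The authors aligned reads with TopHat to mm9, counted reads per gene with HTSeq (version 0.5.4p1 in the submitters' processing notes) and scaled by DESeq size factors, and deposited the normalized read counts, a signal that is not whole. Whether counting used strand is not given in the sources used here. From the deposited values the number of reads was recovered in each library (99.99% to 100% of the values were whole within 0.05 reads), in libraries of 20299052 to 27214385 reads, and served only for edgeR (version 4.0.16) and DESeq2 (version 1.42.0) as alternatives.

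Values were tested as log2(normalized read count + 1) with limma (version 3.58.1, trend and empirical Bayes) in 1 fit with age as the only term, on 14634 genes with a mean of at least 10, and called at a Benjamini-Hochberg adjusted p under 0.1 over all of them. Fold changes are on the log2(count + 1) scale, which understates the change of low genes. No depth interval was printed, since each value is compared with the spread of 3 libraries. The alternatives were pseudocounts of 0.5 and 10, no filter, a minimum mean of 100, only the 2 ages compared, a replicate block, scaling to the same total, quantile normalization, both count tools, a false discovery rate of 0.05, and each library left out. Some values of single genes, and 1 alternative added after seeing the data, are not reported here.

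The members and gene lists were chosen with earlier results of these data known. The genes named are the 9 members, the listed complement genes, marker genes where a result turns on them, and the 3 genes most correlated with C1qa, C3, C4b and Serping1. S100a8 and S100a9 were taken from the blood cell list after their values were seen. For each pair of libraries of an age, the mean chi-square per gene on the recovered reads was between 9.2 and 129.4. Taken over all genes together, these values were above sampling noise. Abundant genes can dominate such a mean, and no p-value was computed.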

Additional observations from a re-analysis of the deposited data

How the results depend on the processing

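No change of a complement gene that was called reversed under the alternatives run: of 1015 values, 989 kept their call or lack of one, 23 lost a call and 3 gained one. Changes near 0 that were not called did change sign, C1qc from P75 to 6 months (-0.039 to 0.095) and C5ar1 from P18 to P75 (-0.317 to 0.075). From P75 to 6 months the 5 complement genes called higher became 3 at a false discovery rate of 0.05, and 3 to 5 with a library left out (3 without P75 replicate 1 or 2, or 6-month replicate 1 or 2), the losses being C1qb and C4b. At a minimum mean of 100, C2, C3, C3ar1 and C5ar1 were not tested, so that the 8 from 6 months to 24 months became 5, as did the 9 from P75 and the 9 from P18 to 24 months. With a library left out, the 8 became 6 to 9. Deviations of libraries with equal replicate numbers correlated between -0.213 and 0.187 over all pairs of ages, which are of different mice. Between P75 and 6 months all 3 correlations were above 0.1 (0.101 to 0.187). Libraries of unequal number were not compared, so these values alone can neither show nor exclude a pairing by replicate number. In a fit blocked on the replicate number, the complement genes called higher were 7, 5 and 8 in the successive steps. They were 9 in both longer spans, and all these counts were the same without the block. Genes with few reads, such as C5ar1, are limited by depth.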
